A study of Mus musculus with 16 samples.

Results

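Tnf and 9 genes of the NF-kB feedback circuit (Nfkb1, Nfkb2, Rel, Relb, Nfkbia, Nfkbiz, Bcl3, Tnfaip3 and Icam1) were followed through 16 RNA-seq libraries of mouse macrophages. The members are the rows of the deposited gene table that carry these symbols. All 10 were found among the 46320 genes of the table, and all 10 were among the 15610 genes that passed the filter on low counts. The cells were bone marrow-derived macrophages of C57BL6/J mice, grown for 7 days with 15% L929-conditioned medium, the source of the growth factor M-CSF. They were kept in 0.5% serum for 4 hours, and every group was then treated for 4 hours. The groups, of 4 libraries each, received PBS, called vehicle here, or thrombin, or resting platelets, or platelets activated with thrombin (activated platelets), the platelets having been purified from blood of C57BL6/J mice. The protocol gives 0.01 U/mL of thrombin for both thrombin groups, while the labels of the thrombin libraries give 0.1 U/mL. Any comparison between the 2 thrombin-containing groups, and the interaction, therefore assumes a dose that the labels leave uncertain. No age or sex is given, and no label says whether replicates came from separate animals or cultures, so p-values measure the spread between these libraries, which may be partly technical.

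NF-kB is a family of dimeric transcription factors that inhibitor proteins hold in the cytoplasm of unstimulated cells. Receptors for TNF, IL-1 and microbial products free the dimers, which then switch on inflammatory genes together with the genes of their own inhibitors and subunits. In macrophages these feedback transcripts are known as early responders to such signals. In the canonical branch the inhibitor encoded by Nfkbia is degraded, and in the alternative branch the precursor encoded by Nfkb2 is processed so that it can act with the Relb product.

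The depth was 22.6 to 27.7 M (mega) counts per library in the vehicle group, 23.1 to 26.7 M in the thrombin group, 24.9 to 26.4 M in the resting platelet group and 28.0 to 30.6 M in the activated platelet group. All 10 macrophage markers on the list used had counts in every library and together took 1.70% to 2.17% of them. The 20 platelet and megakaryocyte markers took 0.0226% to 0.0280% of the counts with vehicle, 0.0237% to 0.0266% with thrombin, 0.0255% to 0.0302% with resting platelets and 0.0444% to 0.0502% with activated platelets. Of these 20, 12 had counts in every vehicle library and 19 in every activated platelet library. Gp9, which encodes a platelet surface glycoprotein, had 0 counts in the groups without platelets. The marker with the most counts was Pf4, at 199 CPM with vehicle and 249 CPM with activated platelets. The share is therefore no measure of platelet RNA alone, and it understates how several markers differed between the resting and activated platelet groups. Ppbp stood there at 4.68 and 35.7 CPM, Nrgn at 6.24 and 46.3 CPM and Gp9 at 1.07 and 7.94 CPM. Rgs18 was lower, at 14.6 and 13.8 CPM. Neutrophil markers took 0.00593% to 0.00966% with vehicle and 0.00810% to 0.0159% with activated platelets. Red cell markers took 0% to 7.33e-06% with vehicle and 0.000778% to 0.0014% with activated platelets, and lymphocyte markers 0.00186% to 0.00376% and 0.0009% to 0.00173%. Of the 12 lymphocyte markers, 2 had counts in every vehicle library and 3 in every activated platelet library. Ighm stood at 20.6 and 4.93 CPM in these groups and Cd4 at 8.71 and 7.6 CPM. No other lymphocyte marker was above 0.185 CPM there. Stromal markers, the list of other cells with the largest share, took 0.247% to 0.509% with vehicle and 0.199% to 0.437% with activated platelets. Among them Col1a1 stood at 1740 CPM with vehicle and 1440 CPM with activated platelets, and Col1a2, Col3a1, Pdgfra and Dcn were also lower. Pdgfrb was higher, at 50 and 63.8 CPM, as were Pecam1 at 1.62 and 7.63 CPM, Cdh5 at 1.52 and 1.95 CPM, and Lum. With vehicle Dcn and Lum stood at only 0.442 and 0.036 CPM. The part of these marker lists in the differences below was not tested. Platelet RNA moved with the activated platelet group and, less, with the resting platelet group, beside every difference given for those groups, and its part in them was not tested. In these bulk libraries fewer cells of a type and less RNA per cell cannot be told apart.

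The stretches before the transcription start are shown for 5 members because Nfkb2, Bcl3 and Tnfaip3 changed with activated platelets while Nfkbia and Tnf passed no test in the fit on groups alone. Sequences are from RefSeq on GRCm38.p6, whose promoter table held 7 of the 10 members (not Nfkb1, Relb or Nfkbiz). Each is the 130 bases that end just before the first listed start, 5′ to 3′ on the gene's strand, and capitals mark matches to the canonical kappa-B consensus on either strand, with overlapping matches merged.
Tnf: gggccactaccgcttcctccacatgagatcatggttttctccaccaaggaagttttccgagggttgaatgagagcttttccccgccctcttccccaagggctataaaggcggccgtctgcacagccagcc
Nfkb2: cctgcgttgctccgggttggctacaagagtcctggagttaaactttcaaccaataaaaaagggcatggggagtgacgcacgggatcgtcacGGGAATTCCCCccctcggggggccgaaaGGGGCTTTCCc
Nfkbia: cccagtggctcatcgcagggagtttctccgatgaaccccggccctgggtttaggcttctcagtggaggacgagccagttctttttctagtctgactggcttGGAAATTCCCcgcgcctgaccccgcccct
Bcl3: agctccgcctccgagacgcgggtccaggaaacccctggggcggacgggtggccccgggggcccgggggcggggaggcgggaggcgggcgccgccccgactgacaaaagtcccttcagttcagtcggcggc
Tnfaip3: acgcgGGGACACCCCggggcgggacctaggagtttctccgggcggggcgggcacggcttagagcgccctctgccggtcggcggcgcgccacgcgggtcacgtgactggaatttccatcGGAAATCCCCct
On GRCm38.p6 these stretches lie at chr17:35202008-35202137 (minus strand, Tnf), chr19:46304607-46304736 (plus strand, Nfkb2), chr12:55492648-55492777 (minus strand, Nfkbia), chr7:19822756-19822885 (minus strand, Bcl3) and chr10:19015411-19015540 (minus strand, Tnfaip3).

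In the Nfkb2 stretch the matches covered bases 39 to 29 and 11 to 2 before the start. In Tnfaip3 they covered bases 125 to 116 and 12 to 3, and in Nfkbia bases 29 to 20. Bcl3 had its match, GGGAAGTCCC, at bases 3 to 12 after the start. In the whole window of 250 bases before and 50 bases after a start, the consensus was found in 5 of the 7 members (Nfkb2, Rel, Nfkbia, Bcl3 and Tnfaip3) and in 9.55% of 27025 genes. In the 250 upstream bases alone it was found in 4 of the 7 and in 8.23% of genes. A looser kappa-B motif, which leaves 5 of its 10 bases free and takes in every canonical match, was in all 7 members and in 53.5% of genes over the whole window, and is thus no mark of these genes. Tnf and Icam1 had no canonical match in these windows, which says only that these letters are not there. A match is a description of sequence, not a measured site.

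The 10 genes differed widely in level. Per kilobase of annotated exon, vehicle macrophages held most Nfkbia transcript, at 47.2 ± 3.19 CPM per kilobase (SD, n = 4, as for all group values below), where CPM are counts per M counts of the library after TMM scaling. Icam1, which encodes an adhesion receptor for leukocyte integrins, followed at 31.3 ± 2.58 CPM per kilobase, and Nfkb1, which encodes the p105 precursor of the p50 subunit, at 28.5 ± 1.70 CPM per kilobase. The libraries of Icam1 and Nfkb1 overlapped. Bcl3 came next at 14.3 ± 0.813 CPM per kilobase, apart from both neighbours. Tnf, Rel, Nfkbiz, Nfkb2 and Relb lay between 8.65 and 7.95 CPM per kilobase, each overlapping the next, and Tnfaip3 was lowest at 6.16 ± 0.438 CPM per kilobase. With activated platelets the first 4 ranks were held by the same genes in the same order, with overlap among the first 3, while Nfkb2 took rank 5 at 10.7 ± 1.89 CPM per kilobase and Tnf rank 10 at 7.99 ± 3.66 CPM per kilobase, with overlap between each neighbouring pair from rank 5 on. These lengths count every annotated exon, so the level of a gene with several alternative exons, such as Nfkb2 at 11300 bases, is understated.

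**Figure D1:**
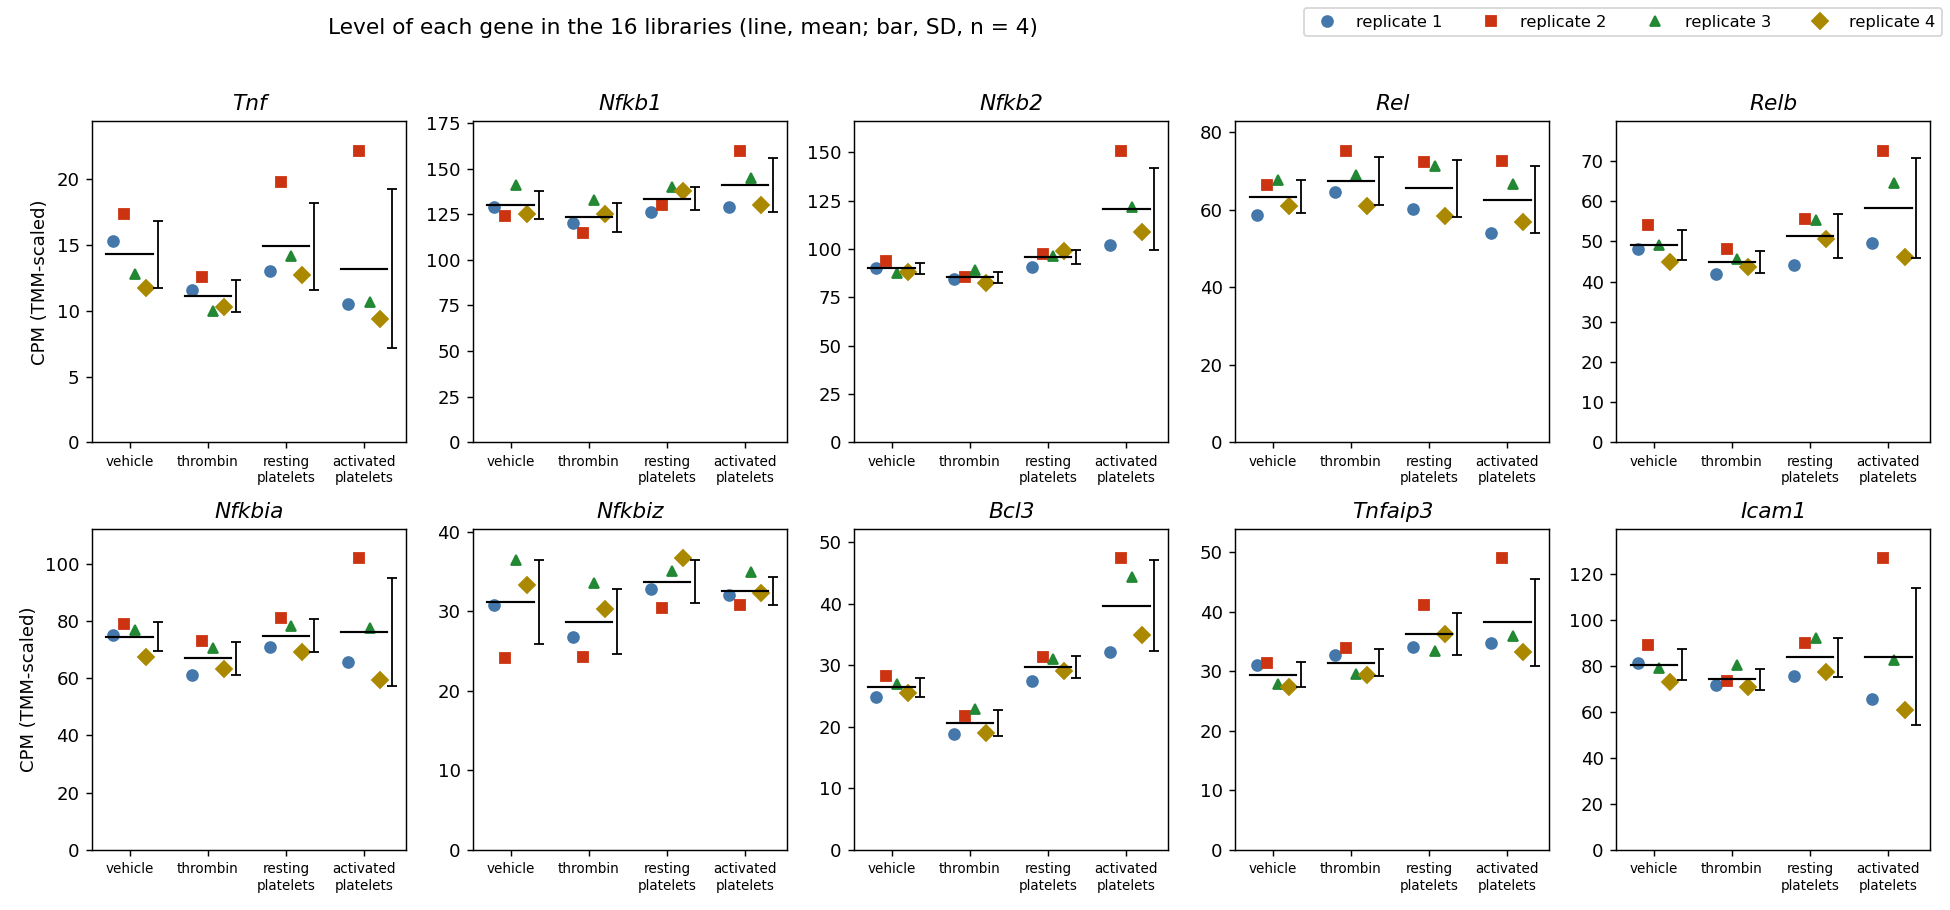
Level of each of the 10 genes in TMM-scaled CPM (vertical axis, from 0) in the 4 groups (horizontal axis), with 1 point per library, the marker shape giving the replicate number, a line at the mean and a bar of 1 SD (n = 4). The Bcl3 and Nfkb2 points with activated platelets lie above all vehicle points, whereas the Tnf points with activated platelets lie below all vehicle points except that of library 2, at 22.2 CPM.

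Differences were tested with the quasi-likelihood test of edgeR on all 16 libraries and Benjamini-Hochberg adjustment over 15610 genes, and a gene is said to be called, or to rise or fall, only at an adjusted p under 0.05. Because libraries with the same replicate number deviated together in every group, the fit was repeated with the number as a block, and its value is given where it changes a call. The comparisons share their vehicle, thrombin or activated platelet libraries and are not independent of each other.

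Tnf, the cytokine that signals into this circuit and is itself a target of it, was not called in any comparison on all libraries. Its gene lies on the minus strand at chromosome 17, 35418343 to 35420983 (GRCm39). In the vehicle libraries 1 to 4 it stood at 15.3, 17.4, 12.8 and 11.7 CPM, with thrombin at 11.6, 12.6, 9.99 and 10.3 CPM, with resting platelets at 13.0, 19.8, 14.2 and 12.7 CPM, and with activated platelets at 10.5, 22.2, 10.7 and 9.36 CPM. Library 2 was the highest of its group in all 4 groups, and the groups overlapped. The log2 change with activated platelets against vehicle was -0.11 ± 0.23 (SE, adjusted p = 0.772), and the 95% interval of the fold ran from 0.657 to 1.30. With thrombin alone Tnf was 1.28-fold lower (adjusted p = 0.618, and 0.123 with the block), and it was lower within every replicate number. With resting platelets the log2 change was 0.06 (adjusted p = 0.928).

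The Tnf result rested on 1 library. Without library 2 of the activated platelets, the mean of the other 3 was 10.2 ± 0.731 CPM, and Tnf was then lower than with vehicle, with a log2 change of -0.49 ± 0.16 (adjusted p = 0.0373), and lower than with resting platelets, with a log2 change of -0.55 ± 0.16 (adjusted p = 0.0323). When number 2 was left out of all groups, the change against vehicle was -0.37 ± 0.10 (adjusted p = 0.0211). Library 2 was singled out after seeing the data, and without it the SD of the activated platelets went from 6.06 to 0.731 CPM. These p-values therefore do not establish a fall of Tnf. Within each replicate number the log2 ratio of activated platelets to vehicle was -0.55, 0.35, -0.26 and -0.32, so that 3 of 4 numbers were lower and number 2 was higher. This library also had the highest platelet marker share of its group, 0.0502% against 0.0444% to 0.0477% in the others. In the other groups library 2 had the lowest share, at 0.0226% with vehicle, 0.0237% with thrombin and 0.0255% with resting platelets. The part of these differences in the Tnf values was not tested. The platelet marker share includes Pf4, which vehicle macrophages also held, so it is no measure of platelet RNA alone.

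Library 2 of the activated platelets was the highest of its group in 9 of the 10 members, the exception being Nfkbiz, in which it was the lowest. Its distance from the next library varied, with Bcl3 at 47.4 CPM beside 44.4 CPM in library 3 and Tnf at 22.2 CPM beside 10.7 CPM. Over 11048 genes with a mean of at least 5 CPM, it was the highest of its group in 27.3%. Number 2 was also the highest in 7 members with vehicle, 5 with thrombin and 6 with resting platelets, against 34.8%, 30.9% and 33.0% of all genes. The median SD of the members was 18.8% of the mean with activated platelets, compared with 6.93% with vehicle, 7.78% with thrombin and 8.89% with resting platelets. The same median over all genes lay between 6.01% and 6.43% in the 4 groups.

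**Figure D2:**
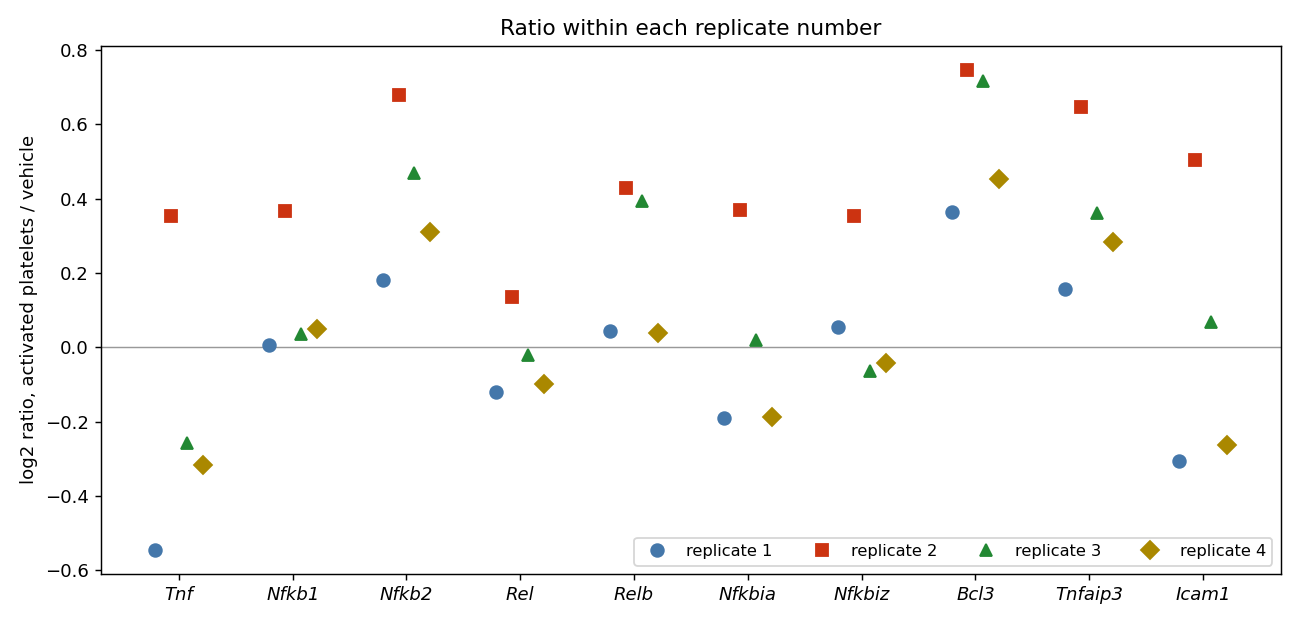
The log2 ratio of activated platelets to vehicle within each replicate number (vertical axis) for the 10 genes (horizontal axis), 1 point per number. Number 2 (red squares) is the highest point for every gene, and Bcl3, Nfkb2, Tnfaip3, Nfkb1 and Relb have all 4 points above 0.

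Among the subunit genes, Nfkb2 (chromosome 19, 46285478 to 46300839, plus strand, GRCm39), which encodes the p100 precursor of the p52 subunit, rose with activated platelets. It stood at 90.1, 94.0, 87.8 and 87.9 CPM with vehicle, 84.4, 85.5, 89.3 and 82.6 CPM with thrombin, 90.6, 97.3, 96.5 and 99.1 CPM with resting platelets, and 102, 151, 122 and 109 CPM with activated platelets. Each activated platelet library was above every library of the other groups. The rise was 1.34-fold against vehicle (log2 0.43 ± 0.085, adjusted p = 0.00158), 1.41-fold against thrombin (adjusted p = 0.000422) and 1.26-fold against resting platelets (adjusted p = 0.0144). Without library 2 of the activated platelets the log2 rise against vehicle was 0.30 ± 0.054 (adjusted p = 0.000782). These 3 calls held in each of the 8 fits that left out 1 library of the groups compared. The call against resting platelets was lost when only those 2 groups were fitted (adjusted p = 0.0814) and without number 3 in all groups (adjusted p = 0.101), also with the replicate block (chosen after seeing the data).

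Relb, which encodes the partner of p52 in the alternative branch, was called higher with activated platelets than with thrombin. Its libraries read 48.2, 54.0, 49.1 and 44.9 CPM with vehicle, 41.9, 48.1, 45.7 and 43.6 CPM with thrombin, 44.0, 55.5, 55.2 and 50.6 CPM with resting platelets, and 49.7, 72.6, 64.5 and 46.1 CPM with activated platelets. Libraries 2 and 3 of the activated platelets were high, and libraries 1 and 4 lay among those of the other groups. The difference from thrombin was 1.30-fold (log2 0.38 ± 0.12, adjusted p = 0.0288), and it was lost in 5 of 8 fits that left out 1 library (thrombin 1, 3 or 4, or activated platelets 2 or 3), with adjusted p up to 0.101. Against vehicle the difference was 1.19-fold (adjusted p = 0.143), and it was called in the fit with the replicate block (adjusted p = 0.0141). The interaction, defined below for Bcl3, was 0.31 on the log2 scale (adjusted p = 0.27), and with the block it was called at 0.30 ± 0.10 (adjusted p = 0.0372, positive in 3 of 4 numbers). It was not called with the block and a GC offset, and in only 1 of 24 fits with fewer libraries, with or without the block.

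Nfkb1 differed less. It ran from 124 to 141 CPM with vehicle, from 115 to 133 CPM with thrombin, from 126 to 140 CPM with resting platelets and from 129 to 160 CPM with activated platelets, so that all groups overlapped. It was called 1.14-fold higher with activated platelets than with thrombin (log2 0.19 ± 0.068, adjusted p = 0.0470). This call was lost in 5 of 8 fits that left out 1 library (thrombin 1, 2 or 4, or activated platelets 2 or 3), with adjusted p up to 0.160. Rel, which encodes the c-Rel subunit, had means of 63.4 ± 4.24 CPM with vehicle, 67.4 ± 6.18 CPM with thrombin, 65.5 ± 7.40 CPM with resting platelets and 62.6 ± 8.67 CPM with activated platelets, and was called in no comparison. In the fit with the replicate block Rel was lower with activated platelets than with thrombin, in 4 of 4 numbers (log2 -0.11 ± 0.041, adjusted p = 0.0299). Its interaction had an adjusted p of 0.534 without the block and was called with it (log2 -0.16 ± 0.058, adjusted p = 0.0463, lower in 4 of 4 numbers). Neither Rel call was kept with the block and a GC offset. The interaction was called in 0 of 24 fits with fewer libraries, with or without the block.

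Among the inhibitor genes Bcl3 rose, by the largest fold of the 10 members in each comparison of activated platelets with another group. It encodes an atypical member of the IkB family that binds p50 and p52 dimers in the nucleus. Bcl3 stood at 24.9, 28.2, 27.0 and 25.4 CPM with vehicle, 18.8, 21.8, 22.9 and 18.9 CPM with thrombin, 27.4, 31.3, 31 and 29.1 CPM with resting platelets, and 32.1, 47.4, 44.4 and 34.9 CPM with activated platelets. The activated platelet libraries all exceeded every other library, and the thrombin libraries all lay below every other library. Bcl3 rose 1.5-fold against vehicle (log2 0.59 ± 0.11, adjusted p = 0.000647), 1.92-fold against thrombin (log2 0.94 ± 0.11, adjusted p = 8.78e-06) and 1.34-fold against resting platelets (adjusted p = 0.0130). All 3 calls held in each of the 8 fits that left out 1 library of the groups compared. The call against resting platelets was lost when only those 2 groups were fitted (adjusted p = 0.0552) and without number 2 or number 3 in all groups (adjusted p = 0.0534 and 0.0926).

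With thrombin alone Bcl3 was 1.28-fold lower than with vehicle, which passed only in the fit with the replicate block (adjusted p = 0.197 without it and 0.00130 with it, lower in 4 of 4 numbers). That call was lost with the block and a GC offset, where 0 members were called in this comparison. With resting platelets Bcl3 was 1.12-fold higher, again called only with the block (adjusted p = 0.425 and 0.0461). With the block and a GC offset it was called at 1.24-fold (log2 0.31 ± 0.059, adjusted p = 0.00089). In fits with fewer libraries, with or without the block, this rise was called in 0 of 16. The interaction is the log2 difference between activated and resting platelets minus that between thrombin and vehicle. As the platelets were activated with thrombin, it is no effect of thrombin on macrophages alone. For Bcl3 the interaction was 0.77 ± 0.15 on the log2 scale (adjusted p = 0.00444). It was positive in 4 of 4 numbers and was called in all 16 fits that left out 1 library. For Nfkb2 the interaction was 0.41 ± 0.12 (adjusted p = 0.0441), and it was lost in 13 of 16 such fits, with adjusted p from 0.0154 to 0.0929 over the 16. It was kept only without activated platelets 1, 2 or 4.

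Bcl3 and Relb both lie on chromosome 7, at 19542387 to 19556691 and 19340142 to 19363363 (both minus strand, GRCm39), with 179 kb between them. Their log2 CPM values had a Pearson correlation of 0.85 over the 16 libraries and of 0.90 after the group means were removed. These libraries share treatments and replicate numbers, so the values describe this set of libraries.

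Tnfaip3, which encodes A20, an enzyme that edits ubiquitin chains and dampens signalling from TNF and Toll-like receptors, rose with activated platelets. Its libraries read 31.1, 31.3, 27.9 and 27.3 CPM with vehicle, 32.7, 33.9, 29.6 and 29.4 CPM with thrombin, 34.0, 41.1, 33.4 and 36.3 CPM with resting platelets, and 34.7, 49.0, 35.9 and 33.2 CPM with activated platelets. All 8 libraries with platelets exceeded all 4 vehicle libraries, and library 2 of the activated platelets was far above the other 3 of its group. The rise with activated platelets was 1.30-fold against vehicle (log2 0.38 ± 0.11, adjusted p = 0.0153), and it was lost without vehicle 4 (adjusted p = 0.0504), with only these 2 groups fitted (adjusted p = 0.0515) and without number 3 or number 4 in all groups (adjusted p = 0.0724 and 0.0534). Without library 2 of the activated platelets the log2 rise was 0.23 ± 0.077 (adjusted p = 0.0375). With resting platelets Tnfaip3 was 1.23-fold higher than with vehicle (adjusted p = 0.131), and this was called with the replicate block (adjusted p = 0.00187). Against thrombin the difference was 1.22-fold (adjusted p = 0.0636), and with the block it was called (adjusted p = 0.000948, higher in 4 of 4 numbers). The 2 platelet groups themselves differed by a log2 of 0.08 ± 0.11 (adjusted p = 0.684).

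Nfkbia, which encodes IkBa, the inhibitor that NF-kB itself restores after activation, was not called in any comparison. Its libraries read 75.0, 79.0, 76.7 and 67.4 CPM with vehicle, 61.2, 72.9, 70.5 and 63.1 CPM with thrombin, 70.9, 81.0, 78.2 and 69.0 CPM with resting platelets, and 65.7, 102, 77.7 and 59.2 CPM with activated platelets. The activated platelet libraries included both the highest and the lowest value of all 16. The fold against vehicle was 1.02, with a 95% interval of 0.850 to 1.23 (adjusted p = 0.884). Without library 2 of the activated platelets the log2 change was -0.14 ± 0.091 (adjusted p = 0.292), which turned its direction.

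Nfkbiz, which encodes another nuclear IkB protein, one that some inflammatory genes need for induction, also passed no test in the fit on groups alone. Its means were 31.2 ± 5.27 CPM with vehicle, 28.7 ± 4.07 CPM with thrombin, 33.7 ± 2.75 CPM with resting platelets and 32.5 ± 1.77 CPM with activated platelets. With the replicate block Nfkbiz was higher with activated platelets than with thrombin (log2 0.19 ± 0.057, adjusted p = 0.0104, 4 of 4 numbers). After group means were removed, the correlation of Nfkbiz with Tnf over the 16 libraries was -0.56, while that of Tnf with Tnfaip3 was 0.96 and that of Nfkbia with Icam1 was 0.95. Library 2 of the activated platelets enters all of these values. Within its group it was the highest in Tnf, Tnfaip3, Nfkbia and Icam1 and the lowest in Nfkbiz.

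Icam1 was not called in any comparison. It read 81.2, 89.2, 79.0 and 73.1 CPM with vehicle, 71.7, 73.4, 80.6 and 70.9 CPM with thrombin, 75.8, 90.2, 92.0 and 77.2 CPM with resting platelets, and 65.7, 127, 82.8 and 61.0 CPM with activated platelets. As with Nfkbia, the activated platelet group held both the highest and the lowest of the 16 values. The fold against vehicle was 1.04, with a 95% interval of 0.817 to 1.33 (adjusted p = 0.836). Without number 2 in any group and with the replicate block, Icam1 was lower with activated platelets than with vehicle (log2 -0.16 ± 0.056, adjusted p = 0.0298) and than with resting platelets (log2 -0.22 ± 0.056, adjusted p = 0.00439). That setting was chosen after seeing the data.

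**Figure D3:**
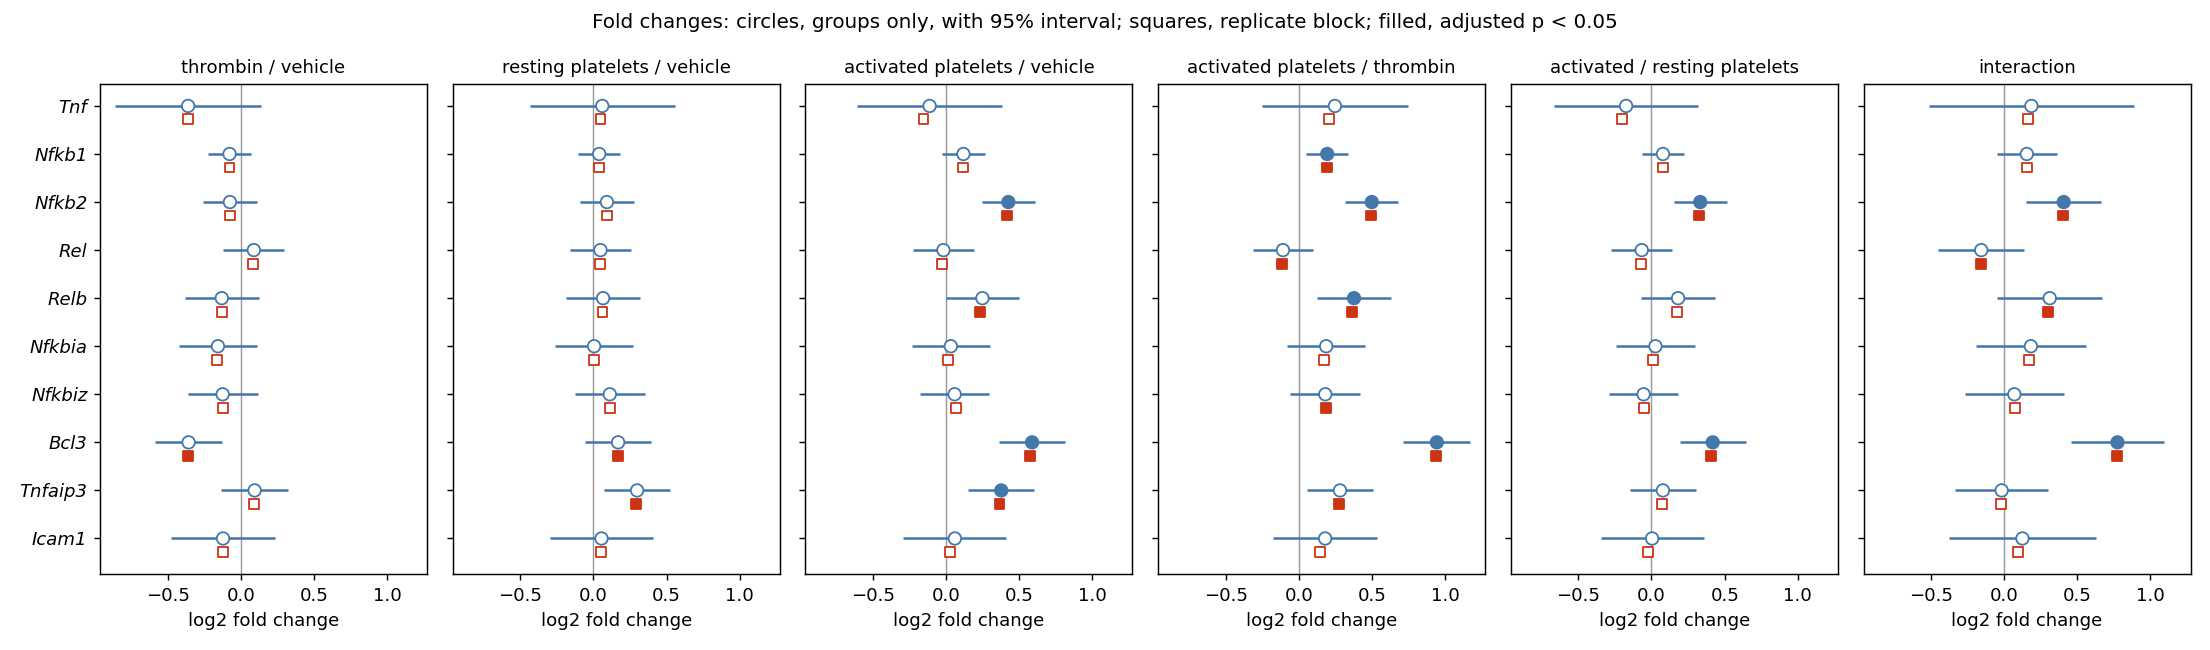
Log2 fold changes of the 10 genes (rows) in the 6 comparisons (panels). Circles with 95% intervals are from the fit on groups, squares from the fit with the replicate number as a block, and filled symbols have an adjusted p under 0.05. Filled circles are found for Nfkb2, Bcl3 and Tnfaip3 against vehicle, for Nfkb1, Nfkb2, Relb and Bcl3 against thrombin, and for Nfkb2 and Bcl3 against resting platelets and in the interaction.

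Counted over the circuit, activated platelets against vehicle gave 3 of 10 members called, all higher, where 25.8% of all tested genes were called in either direction and 12.2% were higher. Against thrombin 4 of 10 were called, all higher, with 25.4% of all genes called and 11.9% higher. Against resting platelets 2 of 10 were higher, with 15.8% of all genes called and 7.34% higher, and in the interaction 2 of 10 were higher, with 9.93% called and 4.56% higher. The share of members called against vehicle was thus near that of all genes. Thrombin alone gave 0 of 10 called (0.288% of all genes), with 1 member, Bcl3, at an unadjusted p under 0.05, where 11.4% of all genes were. Resting platelets gave 0 of 10 (3.39% of all genes), with 1 member, Tnfaip3, at an unadjusted p under 0.05, where 19.2% of all genes were. DESeq2 also called 0 members in these 2 comparisons.

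With the replicate block the counts were 1 lower for thrombin against vehicle (4.32% of all genes lower) and 2 higher for resting platelets against vehicle (10.9% higher). They were 4 higher for activated platelets against vehicle (20% higher), 6 higher and 1 lower against thrombin (19.6% and 22%), 2 higher against resting platelets (15.9%), and 3 higher and 1 lower in the interaction (13.1% and 15.9%). Groups did not overlap at all in 1 member lower with thrombin than with vehicle (3.36% of all genes), 1 higher with resting platelets (6.28%) and 3 higher with activated platelets (12.6%). Activated platelets lay wholly above thrombin in 2 members (11.9% of all genes) and wholly above resting platelets in 2 (9.7%). The median log2 change of the 10 members was 0.09 for activated platelets against vehicle and 0.22 against thrombin, with 8 and 9 of 10 above 0. It was 0.06 for resting platelets, with 10 of 10 above 0, and -0.12 for thrombin, with 2 of 10 above 0. Of all genes, 49.2%, 49.3%, 49.2% and 52% were above 0 in these comparisons, in the same order. The 10 with resting platelets include Nfkbia at a log2 change of 0.0052 ± 0.13 (SE). Several members deviated together within groups, so they are not separate observations. The medians over all genes lay between -0.011 and 0.0056 in the 6 comparisons.

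The rest of the pathway was read from 5 lists chosen, like the members, with earlier results of these data known. Of 26 tested receptors, adaptors and kinases upstream of NF-kB, 8 were higher and 2 lower with activated platelets than with vehicle, and their median log2 change was 0.087 beside -0.0040 over all genes. Over all genes 25.8% were called in this comparison and 12.2% were higher, which applies to the 4 lists that follow too. Irak2, a kinase that relays IL-1 and Toll-like receptor signals, rose from 79.8 ± 7.88 to 126 ± 16 CPM, which is 1.59-fold (adjusted p = 4.25e-05). Map3k14, which encodes NIK, the kinase that starts processing of the Nfkb2 product, rose from 27.7 ± 1.98 to 35.8 ± 2.92 CPM (1.29-fold, adjusted p = 0.00082). Traf3, whose product holds NIK at a low level, rose as well, from 52.9 ± 2.28 to 66 ± 8.18 CPM (1.25-fold, adjusted p = 0.00271). Ticam1, which encodes the Toll-like receptor adaptor TRIF, fell from 36.8 ± 2.84 to 24.7 ± 1.49 CPM (1.49-fold lower, adjusted p = 9.94e-05). Map3k8, a kinase that the Nfkb1 precursor protein binds, fell 1.68-fold (adjusted p = 0.00247).

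Of 17 other NF-kB inhibitors, 5 were higher and 3 lower with activated platelets than with vehicle, with a median log2 change of 0.066. Zc3h12a, which encodes an RNase that destroys inflammatory transcripts, rose 1.49-fold, from 25.8 ± 3.03 to 38.6 ± 4.10 CPM (adjusted p = 0.00038). N4bp1 and Rnf11 rose by smaller factors of 1.19 and 1.16 (adjusted p = 0.0056 and 0.00208). Otulin, an enzyme that removes linear ubiquitin chains, fell 1.55-fold, from 59.4 ± 6.36 to 38.2 ± 0.748 CPM (adjusted p = 1.69e-05), Pdlim2 fell 1.39-fold (adjusted p = 0.00136), and Tnip3, a partner of A20, fell 1.30-fold (adjusted p = 0.00392). Nfkbie, which encodes IkB epsilon, rose 1.76-fold against thrombin (adjusted p = 0.000412), from 11.6 ± 0.888 to 20.4 ± 5.82 CPM.

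Of 26 tested genes among 30 other NF-kB targets, 8 were higher and 4 lower with activated platelets than with vehicle, and 12 were higher and 3 lower than with thrombin, where 25.4% of all genes were called and 11.9% were higher. Their median log2 change against vehicle was 0.19. The targets went in both directions. Ptgs2, which encodes cyclooxygenase-2, stood at 15.7 ± 1.14 CPM with vehicle and 148 ± 44.8 CPM with activated platelets, whereas Tnf itself, in the same libraries, stood at 14.3 ± 2.56 and 13.2 ± 6.06 CPM. Vcam1, an adhesion gene like Icam1, fell 1.73-fold (adjusted p = 0.00476), from 18.8 ± 4.59 to 10.9 ± 1.47 CPM, and the chemokine gene Ccl3 fell 3.30-fold (adjusted p = 2.42e-05). Il1b, which encodes the cytokine IL-1 beta, rose 7.27-fold, from 2.45 ± 1.14 to 17.8 ± 3.11 CPM (adjusted p = 1.65e-06). Ccl4, another chemokine gene, fell 4.06-fold, from 12.1 ± 1.23 to 2.98 ± 0.688 CPM (adjusted p = 5.23e-08). F3, which encodes tissue factor, was 2.74-fold higher at low level, 0.584 ± 0.0768 against 1.61 ± 0.304 CPM (adjusted p = 0.0011).

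Of 14 tested genes that act on the TNF transcript, its production or the shedding of the protein, 3 were higher and 3 lower with activated platelets than with vehicle, with a median log2 change of -0.018. Zfp36, which encodes tristetraprolin, a protein that speeds the decay of the Tnf transcript, rose 1.62-fold, from 93.7 ± 7.72 to 152 ± 13.6 CPM (adjusted p = 0.000146). Zfp36l1, of the same family, fell 1.36-fold (adjusted p = 0.00839) while Zfp36l2 rose 1.23-fold (adjusted p = 0.0135). Mapkapk2 and Mapk14, which encode MK2 and p38, kinases that keep the Tnf transcript stable and translated, fell 1.25-fold and 1.27-fold (adjusted p = 7.99e-05 and 0.000683). Timp3, an inhibitor of the enzyme that sheds TNF from the cell surface, rose 2.53-fold, from 102 ± 33.0 to 257 ± 92.8 CPM (adjusted p = 0.0032).

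Of 12 tested ligands and relatives of Icam1, 2 were higher and 2 lower with activated platelets than with vehicle, with a median log2 change of 0.0048. Msn and Ezr, which encode moesin and ezrin, the linkers of ICAM-1 to actin, rose 1.12-fold and 1.15-fold (adjusted p = 0.0144 and 0.0237). Tln1, which encodes talin, the activator of the integrins that bind ICAM-1, fell 1.22-fold, from 804 ± 35.5 to 661 ± 12.3 CPM (adjusted p = 0.000135). Icam5, a relative of Icam1, fell 1.97-fold at low level, from 0.927 ± 0.164 to 0.475 ± 0.169 CPM (adjusted p = 0.0325). Thrombin alone gave 0 calls in all 5 lists, at 0.288% called over all genes, and with the replicate block between 1 and 3 in each list. With resting platelets Rnf11, Ptgs2 and Msn rose and Ccl4 fell.

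**Figure D4:**
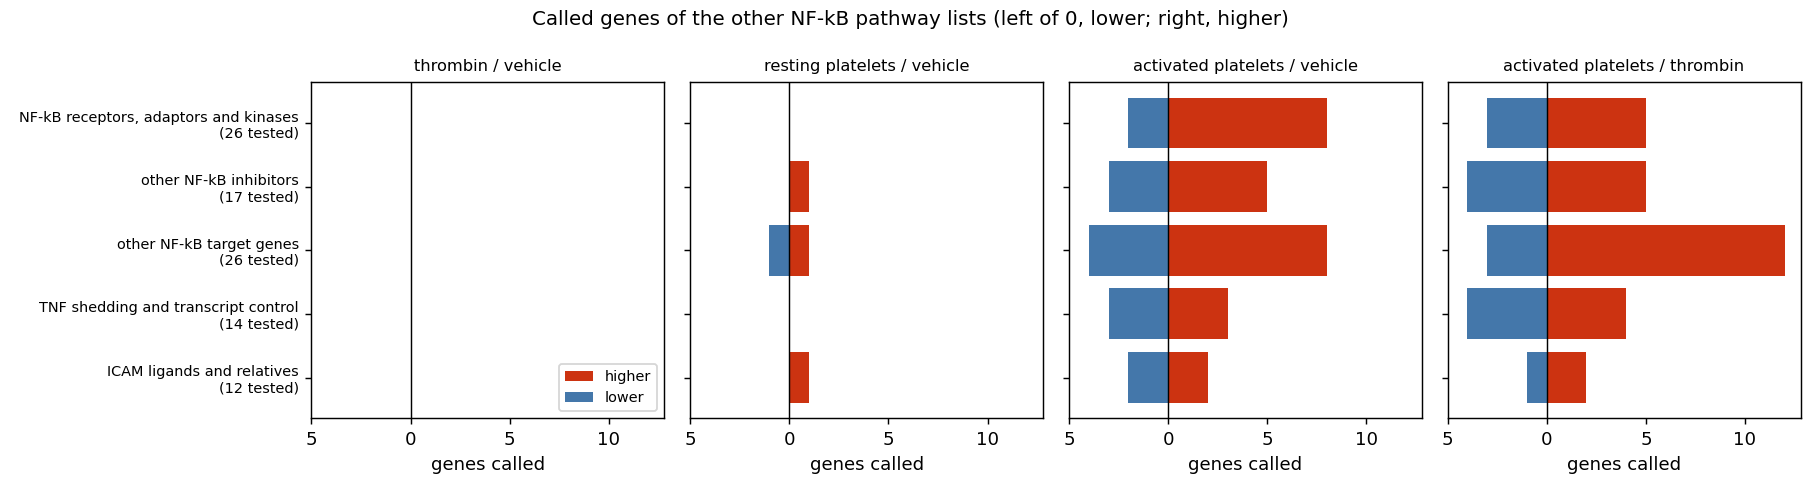
Number of genes of each pathway list (rows, with the number tested) called lower (left of 0) or higher (right of 0) in 4 comparisons (panels, edgeR, adjusted p under 0.05). No gene was called with thrombin alone, and the lists with activated platelets held both higher and lower genes.

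Genes with predicted or clone symbols (such as Gm and digits, Rik or LOC) were left out of the search for likeness. The genes whose log2 CPM was most like that of each member over the 16 libraries were sought among the remaining 10341 genes with a mean of at least 5 CPM. For Tnf they were Lrp1 (Pearson r = 0.87), Icam1 (0.84), Nfkbia (0.84) and Cxcl10 (0.83). Nfkbia and Icam1 were each other's closest gene, at 0.95. The closest to Nfkb2 was Tnip1, whose product is a partner of A20, at 0.95, the closest to Relb was Rhbdf2, which encodes a factor needed for TNF shedding, at 0.95, and the closest to Bcl3 was Castor2 at 0.96. Tnfaip3 was nearest to Mmp13 at 0.93, Nfkb1 to Icosl at 0.92, Rel to Atg14 at 0.93 and Nfkbiz to Ctsc at 0.91. These values describe libraries that share groups, replicate numbers and depth, and the high values of number 2 enter all of them.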

How the data were processed

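The authors deposited estimated counts per gene, with no normalization, for 16 libraries made with a TruSeq Stranded mRNA kit, named by RefSeq gene (GRCm39). STAR 2.7.2b, featureCounts 1.6.4 and cutadapt 2.5 are listed, without their roles, per the submitters' processing notes. How strand and multi-mapping reads were treated is not given in the sources used here, so overlapping genes are uncertain. As 25.5% of values above 0 were not whole, where whole counts had been assumed, counts were rounded, which changed 0.00734% of them. Filtering (filterByExpr), TMM scaling and edgeR 4.0.16 (R 4.3.3; quasi-likelihood, robust) used 4 groups without a block. P-values are two-sided. CPM are TMM-scaled, with a prior count of 2 on the log2 scale.

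The members and lists were chosen with earlier results of these data known. The rule for named genes took all members and, from each list, up to 3 genes per direction with the smallest p. It is followed in full for activated platelets against vehicle, and some of its genes are named for the other comparisons. Groups share replicate numbers: 24 same-number correlations of deviations from group means were 0.29 to 0.617, the other 72 pairs -0.436 to 0.253, and each of the 16 libraries was closest to one of its own number. The pairing is taken from these data, since the labels do not explain the numbers. Alternatives were DESeq2 1.42.0, its size factors, limma-voom (limma 3.58.1), no filter, 2 groups alone, the block, the block with a GC offset (94.9% of tested genes had a GC value) and leaving libraries out. The code was tested on simulated data.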

Additional observations from a re-analysis of the deposited data

Results flagged for a closer look

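Of 40 sets of 4 libraries (10 genes in 4 groups), 2 held a library far from the other 3, both in library 2 of the activated platelets, where chance gives about 1 in 20 sets. Tnf stood at 22.2 CPM there, and the other 3 libraries lay between 9.36 and 10.7 CPM, so that the gap was 0.893 of the range. Tnfaip3 stood at 49.0 CPM, the other 3 between 33.2 and 35.9 CPM, a gap of 0.831 of the range.

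The interaction was called for Bcl3, at 0.774 on the log2 scale (edgeR, adjusted p = 0.00444, positive in 4 of 4 numbers), and for Nfkb2, at 0.407 (adjusted p = 0.0441, positive in 4 of 4 numbers). Its part with platelets compares activated with resting platelets, so it is no effect of thrombin on macrophages alone. The Nfkb2 call was lost with limma-voom (adjusted p = 0.0507) and without the filter on low counts (edgeR, adjusted p = 0.0806). With the block and a GC offset it was lost too, at a log2 value of 0.23 (adjusted p = 0.207). In fits with fewer libraries it was lost in 18 of 24.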

How the results depend on the processing

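Of 410 log2 changes of members under settings that kept every library in the comparison, 377 kept direction and side of the threshold, 10 lost and 14 gained a call, and 9 turned. The counts of members called were, in the order thrombin, resting and activated platelets against vehicle, activated platelets against thrombin and against resting platelets, and the interaction, 0, 0, 3, 4, 2 and 2, and DESeq2 and its size factors gave the same counts. Limma-voom and no filter each gave 3 against thrombin and 1 in the interaction. With only the 2 groups compared, 2 were called for activated platelets against vehicle, 2 against thrombin and 0 against resting platelets. The replicate block gave 1, 2, 4, 7, 2 and 4, and with the GC offset 0, 2, 4, 6, 2 and 1. With fewer libraries, the block without 1 number (chosen after seeing the data) included, the counts ran from 0 to 2, 0 to 2, 2 to 5, 2 to 7, 0 to 4 and 1 to 3.

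Directions that turned all belonged to members that edgeR did not call in that comparison. For Icam1 against resting platelets limma-voom gave -0.052 (log2), the block -0.024 and the block with GC offset -0.074, and the last gave -0.016 in the Icam1 interaction. For Nfkbia against resting platelets limma-voom gave -0.0012 and the block with GC offset -0.022. The latter also gave 0.035 for Nfkb2 with thrombin, -0.015 for Rel with resting platelets and 0.027 for Tnfaip3 in the interaction. With 1 library or number left out, the log2 changes of activated platelets against vehicle ran from -0.21 to 0.19 for Icam1, -0.14 to 0.14 for Nfkbia, -0.045 to 0.14 for Nfkbiz, -0.099 to 0.052 for Rel and -0.49 to 0.032 for Tnf. Against thrombin they ran from -0.087 to 0.32 for Icam1 and -0.13 to 0.39 for Tnf, and against resting platelets from -0.26 to 0.14 for Icam1, -0.15 to 0.14 for Nfkbia, -0.15 to 0.0064 for Rel and -0.065 to 0.15 for Tnfaip3. In the interaction they ran from -0.15 to 0.27 for Icam1, -0.016 to 0.17 for Nfkbiz, -0.19 to 0.35 for Tnf and -0.16 to 0.058 for Tnfaip3. For resting platelets against vehicle they ran from -0.0021 to 0.11 for Icam1, -0.043 to 0.036 for Nfkbia, -0.0026 to 0.095 for Rel and -0.11 to 0.17 for Tnf. With the replicate block and number 2 left out, Icam1 gave -0.22 against resting platelets, -0.090 against thrombin, -0.16 against vehicle and -0.15 in the interaction. Nfkbia gave -0.11 against resting platelets and -0.11 against vehicle there, Nfkbiz -0.012 against vehicle, and Tnf -0.055 against thrombin and -0.058 in the interaction. With the block and 1 number left out, Icam1 gave -0.0053 and Nfkbia -0.0070, -0.0074 and -0.012 (number 2, 3 or 4) for resting platelets, Rel 0.015 and 0.0016 for activated platelets against vehicle, and Tnfaip3 0.057 in the interaction. The cause of these shifts was not tested. Over all genes the calls with thrombin were 45, against 160 with DESeq2, 11 with 2 groups, 30 without the filter and 1285 with the block, and those with resting platelets were 529, 953, 188, 335 and 3360.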

Other observations

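Between the 2 platelet groups, of the 17 inhibitors tested, 1 was higher and 4 were lower with activated than with resting platelets (edgeR, adjusted p under 0.05), where 15.8% of all genes were called. Otulin was 1.42-fold lower (adjusted p = 0.000329) and Tnip3 1.48-fold lower (adjusted p = 0.000331), and Zc3h12a was 1.31-fold higher (adjusted p = 0.0118). Itch, a ubiquitin ligase that works with A20, was lower, with a log2 change of -0.14 (adjusted p = 0.0326). Of the 26 receptors, adaptors and kinases, 3 were higher (Map3k14, Traf1 and Irak2) and 3 were lower (Ticam1, Tab2 and Map3k8).

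In the interaction, no inhibitor was higher and 4 of 17 were lower, where 9.93% of all genes were called, and with the replicate block 4 were higher and 4 lower. The log2 values were -0.58 ± 0.11 (SE) for Otulin (adjusted p = 0.0033), -0.29 ± 0.06 for Itch (adjusted p = 0.00592) and -0.48 ± 0.12 for Tnip3 (adjusted p = 0.0201). Map3k14 and Traf1 had positive values, 0.40 ± 0.098 (adjusted p = 0.0166) and 0.85 ± 0.22 (adjusted p = 0.0221), while Tab2 and Ticam1 of the same list had negative ones, -0.24 ± 0.059 (adjusted p = 0.0184) and -0.42 ± 0.12 (adjusted p = 0.0358). Traf1, which encodes a TNF receptor-associated factor, stood at 7.12 ± 0.688 CPM with vehicle, 5.93 ± 0.942 CPM with thrombin, 7.21 ± 1.07 CPM with resting platelets and 10.9 ± 2.5 CPM with activated platelets.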
